A study of Mus musculus with 2 samples.

Results

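The 10 genes described here make melanin or build the melanosome, the organelle that stores it. They were taken by symbol from a fixed list (Tyr, Tyrp1, Dct, Pmel, Mlana, Oca2, Slc45a2, Slc24a5, Gpr143 and Mitf), and all 10 were found among the 32285 genes of the deposited matrices. Their levels were compared between cell classes of the mouse eye: melanocytes first, then the retinal pigment epithelium (RPE), then a class marked by Pax6 and Pcp4, and last the cells without pigment. The tissue was choroid with RPE from wild-type mice of the outbred ICR strain, 8 weeks old, with no treatment and no other genotype. ICR mice are albino, so every cell in these data came from an eye that lacks melanin. There were 2 droplet libraries, each from pooled tissue of 1 male and 1 female mouse, and these pools served as the replicates (n = 2). Each unique molecular identifier (UMI) counts a captured transcript, and levels are given as CPM, the UMIs of a gene scaled to a common total of UMIs per class, which say nothing of protein or pigment.

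Melanin is made from tyrosine by tyrosinase, which performs the first and rate-limiting step, and by its relatives TYRP1 and DCT further along the path. In melanosomes the pigment is laid down on amyloid fibrils formed from PMEL, and the ion and pH balance that tyrosinase needs is kept by OCA2, SLC45A2 and SLC24A5. MITF is the transcription factor that activates many of these genes in both pigment cell lineages of the eye. Choroidal melanocytes descend from the neural crest, whereas the RPE comes from the optic cup and is known to make most of its pigment before and around birth. The albino coat and eyes of strains such as ICR go back to a loss-of-function allele of Tyr, which leaves the pigment cells themselves in place.

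The libraries held 91741168 and 149570817 UMIs. A barcode was kept with 1000 UMIs and 500 genes or more and no more than 20% of its UMIs from mitochondrial genes. By this, 8497 and 13401 barcodes remained, with medians of 7842 and 8253 UMIs, and 31 barcode sequences occurred in both libraries. A barcode was a melanocyte with at least 1 Sox10 and at least 5 Dct UMIs, and RPE with at least 10 UMIs of Rpe65, Rgr and Rlbp1 together. It belonged to the Pax6-Pcp4 class with at least 1 Pax6 and at least 2 Pcp4 UMIs. The rest went to the gene pair with most UMIs (at least 5): Dcn and Col1a2 for fibroblasts, Cdh5 and Pecam1 for endothelium, Rgs5 and Myh11 for mural cells, C1qa and Csf1r for macrophages. Where a barcode met several rules, the first in this order applied. This gave 1196 and 1957 melanocyte, 156 and 615 RPE and 24 and 116 Pax6-Pcp4 barcodes in libraries 1 and 2, while the classes without pigment had at least 395 each and 1174 and 1465 barcodes stayed unassigned. Because Dct helped to choose the melanocytes, its difference between melanocytes and other classes is a description without a test, and 9 genes were counted there.

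The melanocyte class went in part against its label. In library 1, 163 barcodes met both the melanocyte and the RPE rule, and in library 2 there were 358. These were 51.1% and 36.8% of the barcodes that met the RPE rule. By the rule's order they fell into the melanocyte class, whose level of Ttr, the transthyretin gene and an RPE marker, was thereby 19213 and 23233 CPM, against 67179 and 62094 CPM in the RPE class. The barcodes of both rules were large, with medians of 34159 and 28777 UMIs. Of the 20399588 and 32268970 UMIs of the melanocyte class, they held 6865025 and 12959713. Slc24a5 had 245 and 290.2 CPM in them, against 248 and 289 CPM in RPE, but Pmel and Tyrp1 were above their RPE levels. Pmel stood at 269 and 347 CPM in them, against 12.8 and 56.4 CPM in RPE and 12518 and 10679 CPM in the 1032 and 1593 barcodes that met only the melanocyte rule. They carried 50.7 and 51.5 CPM of Sox10, against 287 and 268 CPM in barcodes of the melanocyte rule only. Pax3, another neural crest factor, was at 0.146 and 2.31 CPM in them, against 39.6 and 87.4 CPM. Scrublet, a doublet caller, marked 7.98% and 14.2% of them, against 2.53% and 5.25% of all barcodes kept. In the whole melanocyte class it marked 100 of 1196 and 272 of 1957 barcodes. The part that doublets have in the results was not tested. The melanocyte differences are given with the barcodes of both rules and without them. Levels given for melanocytes include these barcodes unless stated otherwise.

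The markers of the other labels were as follows. Barcodes of the melanocyte rule only held UMIs of all 6 melanocyte markers, in sum 5229 and 5274 CPM, and 201 and 317 CPM of the 10 RPE markers. Barcodes of both rules held 320 and 329 CPM of the melanocyte markers and 83451 and 84254 CPM of the RPE markers. In the RPE class the 6 melanocyte markers summed to 192 and 156 CPM, and the 10 RPE markers to 93990 and 88190 CPM. Gpnmb alone made up 185 and 139 CPM of the melanocyte markers there. Ednrb was at 1.83 and 8.63 CPM, Kit at 4.27 and 4.50 CPM, and Erbb3 at 0 and 0.188 CPM. The RPE class of library 2 also held 777 CPM of 4 B cell markers, of which Ms4a1 was at 0, against 1.22 CPM in library 1, and the part of this in the results was not tested. Few barcodes lay near the limits of the rules: 2 and 26 barcodes of the RPE class had at least 10 and under 20 UMIs of the RPE genes, with Dct at 1950 and 4354 CPM, and 6 and 27 barcodes just outside had 5 to 9, with Dct at 2430 and 4128 CPM. Among barcodes with Sox10 and fewer than 10 UMIs of the RPE genes, 2 and 6 had 5 to 9 Dct UMIs and 6 and 32 had 1 to 4. Pmel was 446 and 1200.2 CPM just inside that limit and 0 and 63.8 CPM just outside. In library 1 the 2 barcodes just inside the Dct limit had a median of 1120.5 UMIs. The 2 just inside the RPE limit had 1025.5, so these library 1 levels rest on very few UMIs.

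Melanocytes carried more transcript of nearly every pigment gene than RPE. Of the 9 genes counted, 8 were higher in the melanocyte class at an adjusted p below 0.05 and a change of at least 2-fold (edgeR's quasi-likelihood test on UMI sums per class and library), and none was lower. Over all 15010 genes tested, 10.4% were higher in melanocytes by the same rule and 10.6% were lower. Mitf was the gene that missed the threshold. Without the barcodes of both rules, 9 of the 9 genes were higher, against 16.7% of 15036 genes higher and 19.4% lower, and every difference was larger than with them. The size of the difference varied widely among the genes: the ratio of CPM, melanocytes over RPE, was 655 in library 1 and 116 in library 2 for Pmel and 2.12 and 2.82 for Mitf. The differences use TMM scaling. On raw UMI totals the median of all genes lay 0.31 higher on the log2 scale, 9 of the 9 genes were called, and the calls over all genes were 2335 higher and 790 lower, against 1563 and 1588 with TMM. When free RNA estimated from rod photoreceptor genes was subtracted, 1 of the 9 genes, Slc45a2, was called, while the log2 differences of Tyr (2.78), Tyrp1 (4.38), Mlana (4.39), Slc24a5 (1.75), Oca2 (1.59) and Gpr143 (1.14) stayed close to those without subtraction.

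**Figure D1:**
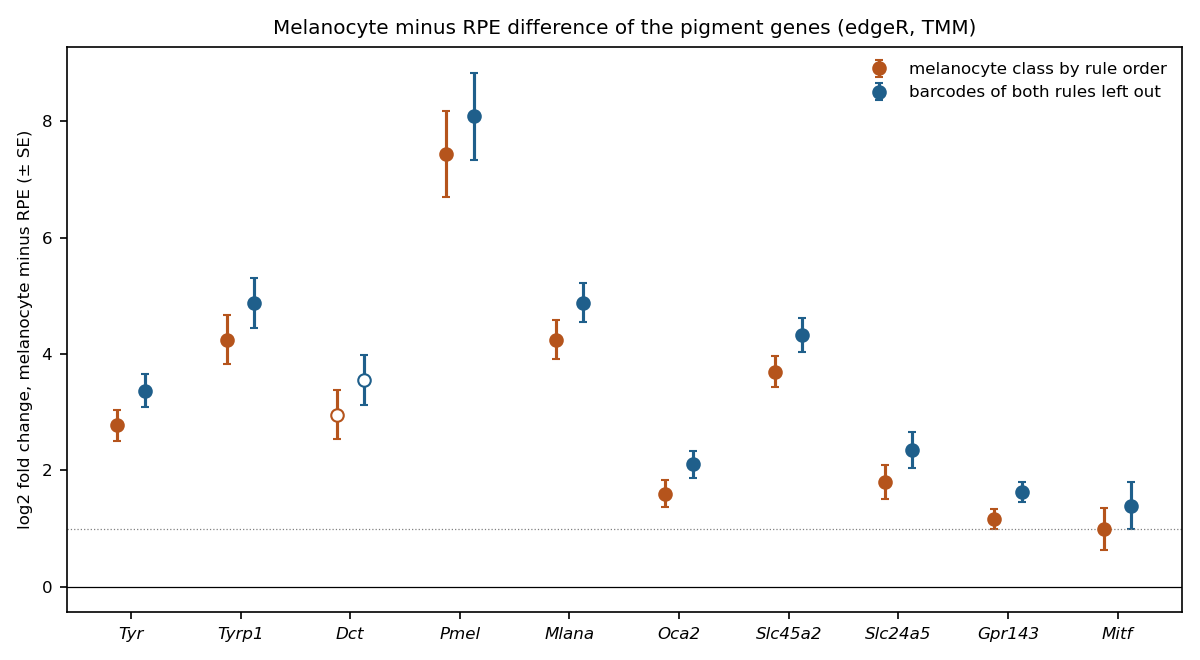
Log2 fold change of each pigment gene, melanocyte minus RPE, from edgeR with TMM scaling (n = 2 libraries). Points are estimates and bars are standard errors, with the melanocyte class by rule order in brown and with the barcodes of both rules left out in blue. The dotted line marks a log2 of 1 and the open points mark Dct, which helped to choose the melanocytes. Pmel stands highest at 7.43 (8.09 without the barcodes of both rules), and Mitf lowest at 1.00 (1.40).

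Tyr encodes tyrosinase (chr7:87424771-87493512, minus strand, GRCm38). Its level was 412 CPM in library 1 and 408 CPM in library 2 in melanocytes, against 42.1 and 53.9 CPM in RPE. The groups did not overlap, and the log2 difference was 2.77 ± 0.27 (SE), with an edgeR adjusted p of 1.88e-05, and 3.37 ± 0.29 without the barcodes of both rules. In barcodes of the melanocyte rule only, Tyr reached 594 and 637 CPM. The ratio of library 2 to library 1 was 1.07 there, so transcript of this gene was present at a similar level in both.

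Tyrp1, the gene of tyrosinase-related protein 1 (chr4:80834123-80851719, plus strand), had 4004 and 3845 CPM in melanocytes, against 151 and 186 CPM in RPE. Its difference was 4.25 ± 0.43 on the log2 scale (edgeR adjusted p 1.44e-04) and 4.87 ± 0.43 without the barcodes of both rules. Its values in melanocytes lay above those in RPE in both libraries, without overlap. In barcodes of the melanocyte rule only, Tyrp1 reached 5912 and 6204 CPM.

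Dct encodes dopachrome tautomerase (chr14:118012790-118052244, minus strand). It had 15049 and 13352 CPM in melanocytes, where it was part of the rule, against 1457 and 1494 CPM in RPE, a log2 difference of 2.95 (3.55 without the barcodes of both rules). When melanocytes were chosen by Sox10 and Kit, the receptor for stem cell factor, no pigment gene entered the choice, and the 9 genes other than Dct were all called higher than in RPE.

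The promoters of these genes are shown because Tyr and Tyrp1 both rose and because MITF is known to bind an extended E-box in them, the M-box. RefSeq's promoter table (GRCm38.p6, 250 bases before to 50 bases after the annotated start) held 6 of the 10 genes: Tyr, Tyrp1, Dct, Oca2, Slc24a5 and Mitf. Both strands were searched for TCATGTGCT, for its core TCATGTG and for CATGTG, the shorter forms lying within the longer. The longest form occurred in Tyr, Tyrp1 and Dct, and in 0.408% of the 32851 promoters of the same length. Slc24a5 had only the core, on the reverse strand, which 3.77% of the promoters held, and Oca2 only CATGTG (14.2%). None of the 3 Mitf promoters had a match. Capitals mark the longest form found, and a match is a string of letters, not evidence of binding. The lines give Tyr (chr7:87493463-87493762, minus strand), Tyrp1 (chr4:80833963-80834262, plus strand), Dct (chr14:118052197-118052496, minus strand) and Slc24a5 (chr2:125067877-125068176, plus strand), each 5' to 3' on its gene's strand.
Tyr: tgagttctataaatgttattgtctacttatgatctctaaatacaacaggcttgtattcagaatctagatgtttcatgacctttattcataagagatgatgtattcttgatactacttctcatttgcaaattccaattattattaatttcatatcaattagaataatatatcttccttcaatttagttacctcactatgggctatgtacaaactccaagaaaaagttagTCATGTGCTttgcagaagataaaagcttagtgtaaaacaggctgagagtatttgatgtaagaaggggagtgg
Tyrp1: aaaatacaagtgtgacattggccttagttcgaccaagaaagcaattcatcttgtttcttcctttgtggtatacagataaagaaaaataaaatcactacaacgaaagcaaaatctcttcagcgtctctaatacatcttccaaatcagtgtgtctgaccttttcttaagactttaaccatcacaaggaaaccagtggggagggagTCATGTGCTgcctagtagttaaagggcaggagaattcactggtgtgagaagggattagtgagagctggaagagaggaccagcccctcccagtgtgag
Dct: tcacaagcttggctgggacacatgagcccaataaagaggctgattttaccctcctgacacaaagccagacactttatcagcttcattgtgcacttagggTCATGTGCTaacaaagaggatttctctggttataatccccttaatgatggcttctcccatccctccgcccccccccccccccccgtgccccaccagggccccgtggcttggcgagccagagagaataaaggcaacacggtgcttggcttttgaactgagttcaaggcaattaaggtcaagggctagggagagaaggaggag
Slc24a5: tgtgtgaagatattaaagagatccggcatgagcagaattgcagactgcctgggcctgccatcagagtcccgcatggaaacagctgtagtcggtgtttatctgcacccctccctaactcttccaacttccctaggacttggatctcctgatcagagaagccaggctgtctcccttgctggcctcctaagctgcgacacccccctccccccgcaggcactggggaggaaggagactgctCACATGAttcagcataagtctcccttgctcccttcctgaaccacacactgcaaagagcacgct
The first base of the capitals lies at position -22 from the annotated start in Tyr, -47 in Tyrp1, -151 in Dct and -13 in Slc24a5.

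Pmel and Mlana, whose proteins act in early melanosomes, differed widely between melanocytes and RPE. Pmel, the gene of the fibril protein (chr10:128704195-128720238, plus strand), had 8392 and 6520 CPM in melanocytes, against 12.8 and 56.4 CPM in RPE. Its log2 difference was 7.43 ± 0.74 (edgeR adjusted p 2.89e-04), and 8.09 ± 0.75 without the barcodes of both rules. With them it was 6.55 in library 2 alone and 9.01 in library 1 alone, so the size, though not the direction, depended on the library. In the RPE class 80.1% and 66.0% of the barcodes had no Pmel UMI at all, against 0.388% and 0.691% in barcodes of the melanocyte rule only. Only 6 of 615 RPE barcodes in library 2, and none of 156 in library 1, had 10 or more, and those 6 held 43.9% of the Pmel UMIs of their class.

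**Figure D2:**
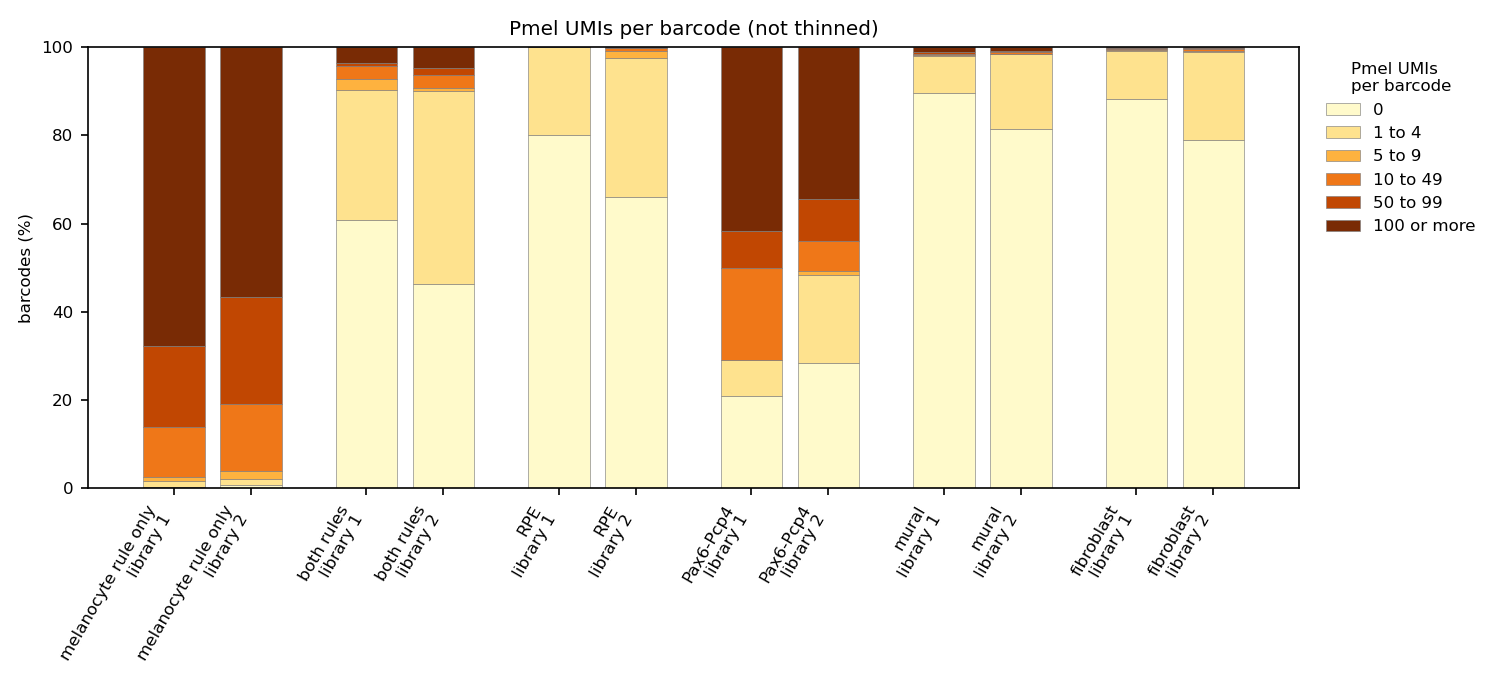
Share of barcodes (%, vertical axis) by their number of Pmel UMIs, not thinned, in each class and library. Most barcodes of the melanocyte rule only held 100 UMIs or more (67.8% and 56.7%), whereas barcodes of both rules and of the RPE class mostly held none or up to 4.

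Mlana encodes melan-A, a membrane protein that binds PMEL (chr19:29697824-29708634, plus strand). It had 3051 and 1832 CPM in melanocytes, against 109 and 93.3 CPM in RPE, a log2 difference of 4.25 ± 0.33 (edgeR adjusted p 1.37e-05), or 4.88 ± 0.33 without the barcodes of both rules. The melanocyte values of the libraries differed more for Mlana than for any gene of the list but Mitf: in barcodes of the melanocyte rule only they were 4524 and 2967 CPM, a ratio of library 2 to library 1 of 0.656.

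The transporters and the melanosomal receptor also stood higher in melanocytes. Slc45a2, a membrane transporter that affects melanosome pH (chr15:11000721-11029233, plus strand), had 367 and 399 CPM in melanocytes, against 25.3 and 23.0 CPM in RPE. Its log2 difference was 3.69 ± 0.27 (edgeR adjusted p 1.11e-06), and 4.32 ± 0.29 without the barcodes of both rules. It kept its call after the subtraction of free RNA by rod genes (log2 3.82, adjusted p 0.0157).

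Slc24a5, the potassium-dependent sodium-calcium exchanger (chr2:125068124-125088677, plus strand), had 1248 and 1102 CPM in melanocytes, against 248 and 289 CPM in RPE. Oca2, a melanosomal membrane protein linked to chloride conductance (chr7:56239760-56536518, plus strand), had 279 and 302 CPM in melanocytes, against 71.1 and 83.9 CPM in RPE. Their log2 differences were 1.80 ± 0.30 for Slc24a5 and 1.60 ± 0.23 for Oca2 (edgeR adjusted p 1.07e-03 and 1.58e-04). Without the barcodes of both rules they were 2.35 ± 0.31 for Slc24a5 and 2.103 ± 0.235 for Oca2.

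Gpr143, the G protein-coupled receptor on melanosomes that is mutated in ocular albinism (chrX:152781921-152808646, plus strand), had 144 and 124 CPM in melanocytes, against 47.9 and 46.9 CPM in RPE. The log2 difference of 1.16 ± 0.17 was the smallest of those called (edgeR adjusted p 1.32e-04), and it was 1.63 ± 0.18 without the barcodes of both rules. The ratio of library 2 to library 1 was 0.980 in RPE, so its values lay close together there.

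Mitf (chr6:97807052-98021349, plus strand) had 133 and 283 CPM in melanocytes, against 62.8 and 100.1 CPM in RPE. The melanocyte values did not overlap those of RPE but were far apart from each other. The log2 difference of 1.00 ± 0.36 had an edgeR adjusted p of 0.0564 and was not called. Without the barcodes of both rules it was 1.40 ± 0.40 (adjusted p 0.0172), which was called. In barcodes of the melanocyte rule only the level was 157 CPM in library 1 and 395 CPM in library 2, a ratio of 2.51. UMIs near the end of the transcript do not tell apart the isoforms that start from the different Mitf promoters of melanocytes and RPE.

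Genes on the opposite strand overlap Dct (4930435M08Rik), Pmel (Cdk2 and Dgka), Oca2 (Gm44506) and Slc24a5 (Myef2). The sources used here do not give the strand setting of the counting, so reads of these partners cannot be told apart with certainty.

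**Figure D3:**
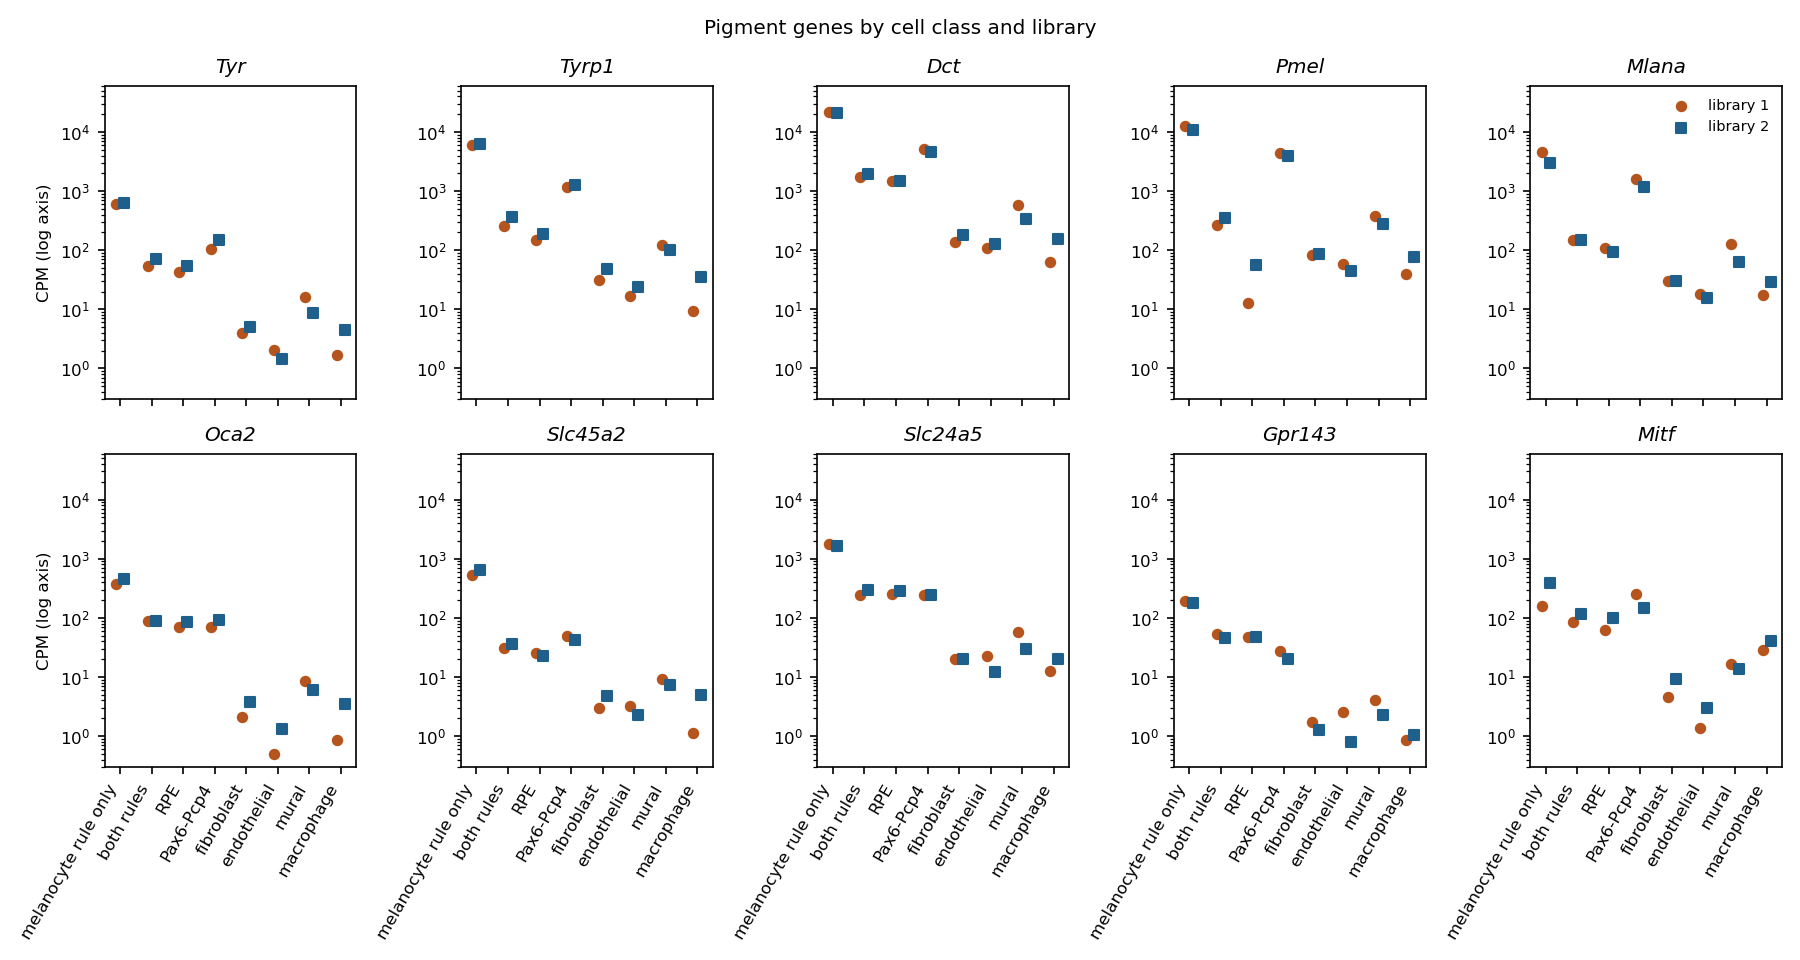
CPM (log axis) of the 10 pigment genes by class, with library 1 as circles and library 2 as squares. Barcodes of both the melanocyte and RPE rules are drawn apart from those of the melanocyte rule only. All 10 genes are highest in barcodes of the melanocyte rule only when the libraries are averaged, and the mean of Pmel in RPE lies below those of the classes without pigment.

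RPE held transcripts of most of the melanin genes above the mean of the classes without pigment. Against the mean of fibroblast, endothelial, mural and macrophage classes, 8 of the 9 genes other than Dct were higher in RPE, where 25.0% of all genes tested were higher by the same rule. Pmel was lower, as were 25.7% of all genes. Barcodes with Sox10 and at least 5 Dct UMIs had been taken out of the RPE class, so Dct is partly set by the rule here too and is given without a test. Oca2 and Gpr143 stood furthest above the other cells, each with a log2 difference of 4.92 (SE 0.20 and 0.16). Oca2 had 71.1 and 83.9 CPM in RPE, against 0.505 to 8.47 CPM across the 4 classes and both libraries. Gpr143 had 47.9 and 46.9 CPM in RPE, against 0.802 to 4.10 CPM. Differences of 3.65 ± 0.21 for Slc24a5, 3.57 ± 0.23 for Tyr and 3.17 ± 0.29 for Mitf followed, and the value of Dct was 3.13. Slc45a2 (2.57 ± 0.23), Tyrp1 (2.22 ± 0.27) and Mlana (1.69 ± 0.22) were closest to the other cells. Mlana in RPE (109 and 93.3 CPM) overlapped its level in mural cells (128 and 62.8 CPM). Tyrp1 had 151 and 186 CPM in RPE, against 122 and 99.7 CPM in mural cells, and Slc45a2 25.3 and 23.0 CPM, against 9.14 and 7.20 CPM. The edgeR adjusted p of these 8 genes was at most 1.26e-04.

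Pmel had 12.8 and 56.4 CPM in RPE, against 39.2 to 375 CPM in the classes without pigment. Its log2 difference was -1.39 ± 0.51 (edgeR adjusted p 0.0428), -2.76 in library 1 alone and -0.72 in library 2 alone. When the barcodes of both rules were counted as RPE, the sign turned and the difference was 1.19 (adjusted p 3.69e-04). In the classes without pigment a few barcodes held most of the Pmel UMIs: 21 of 1107 mural barcodes in library 1 held 96.0% and 25 of 1691 in library 2 held 89.8%. Over the 4 classes and both libraries, barcodes with 10 or more Pmel UMIs held 34.8% to 96.0% of the Pmel, and 74.8% to 89.6% of the barcodes had none. With melanocytes chosen by Sox10 and Kit, Pmel (-0.92), Mlana (0.65) and Tyrp1 (0.97) were not called between RPE and these classes. Pmel was not called after removal of Scrublet doublets (-1.05, adjusted p 0.0696), nor Mlana after subtraction of free RNA by fibroblast genes (0.42, adjusted p 0.172).

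Free RNA in the droplets contained the pigment genes. In barcodes of at most 100 UMIs, Dct stood at 3005 and 3463 CPM and Pmel at 2333 and 2162 CPM. Scaled so that melanocyte RNA would supply all of the Pmel in RPE, the profile of the melanocyte rule only gave 0.256% to 4.25% of the RPE level of the other genes in library 1 and 2.00% to 17.6% in library 2. The profile of the free RNA, scaled the same way, gave 0.321% to 4.13% and 2.04% to 16.2%. The largest shares were those of Mlana in library 1 and Tyrp1 in library 2 for the melanocyte profile. These shares hold for the RPE class, from which barcodes with Sox10 and at least 5 Dct UMIs had been taken out. Over all barcodes that met the RPE rule, the melanocyte profile gave 3.01% (Mitf) to 49.6% (Mlana) in library 1. In library 2 it gave 7.33% (Mitf) to 48.1% (Mlana), with Tyrp1 at 39.3% and 44.5% in libraries 1 and 2.

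Melanocytes were above the cells without pigment in all 9 genes counted, with log2 differences of 4.16 for Mitf to 6.52 for Oca2, and of 4.56 for Mitf to 7.10 for Tyrp1 without the barcodes of both rules. By the same rule, 21.4% of all genes were higher and 19.3% lower. The melanocyte and RPE comparisons share the classes without pigment, so their values stand side by side: 6.34 in melanocytes and 3.57 in RPE for Tyr, 6.52 and 4.92 for Oca2, and 6.04 and -1.39 for Pmel.

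The Pax6-Pcp4 class also carried pigment transcripts. Taken as a whole, the class was higher than the cells without pigment in all 9 genes other than Dct (log2 3.11 for Slc45a2 to 5.18 for Pmel). By the same rule, 19.0% of all genes tested were higher and 14.6% lower. Barcodes with Sox10 and at least 5 Dct UMIs had been taken out of these classes too, so Dct is given without a test (log2 4.51). Against RPE, Pmel (log2 6.57 ± 0.71), Mlana (3.45 ± 0.32), Tyrp1 (2.55 ± 0.40) and Tyr (1.15 ± 0.29) were higher, while 14.4% of all genes were higher. The value of Dct, again without a test, was 1.39. Gpr143 was lower (-1.38 ± 0.25), as were 13.2% of all genes. The edgeR adjusted p of the genes called, with Dct left out, was at most 9.58e-03. Slc24a5 (-0.46 ± 0.31), Oca2 (-0.25 ± 0.27), Slc45a2 (0.54 ± 0.33) and Mitf (0.88 ± 0.41) were not called, and Oca2 changed sign to 0.06 on raw UMI totals. Pmel, Mlana, Tyrp1, Tyr and Gpr143 were no longer called after subtraction of free RNA by rod genes (edgeR adjusted p at least 0.0737). The log2 differences of Mlana (3.64), Tyrp1 (2.70), Tyr (1.19) and Gpr143 (-1.36) stayed close, as did that of Dct (1.40). Tyr was below 2-fold (0.97) with the RPE rule first. Pmel had 4437 and 3942 CPM in the Pax6-Pcp4 class, against 12.8 and 56.4 CPM in RPE, so that the groups lay far apart in both libraries. Gpr143 had 27.8 and 19.9 CPM, against 47.9 and 46.9 CPM in RPE.

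The Pax6-Pcp4 class was not uniform, and its values depend on the mix. The class was split by the gene pairs of the classes without pigment, a division made after the values were seen and given as a description. In 14 and 49 barcodes the mural pair had the most UMIs of these pairs, and at least 5. In 8 and 57 barcodes no pair reached 5 UMIs. The remaining barcodes, led by another pair, were left out. In the barcodes with the mural pair, Pmel was 6009 and 8258 CPM and Myh11, a smooth muscle myosin, 2780 and 1933 CPM. In the barcodes with no other pair, Pmel was 184 and 731 CPM, Myh11 0 and 11.0 CPM, and Optc, the ciliary epithelium gene for opticin, 520.1 and 511 CPM. Dct was 6585 and 7060 CPM with the mural pair and 2468 and 2879 CPM without. In the barcodes with no other pair, Tyr, Tyrp1, Dct, Mlana, Oca2 and Mitf lay above every class without pigment in both libraries. In the 8 such barcodes of library 1, Oca2 rested on 3 UMIs, and Tyr and Mitf on 8 each. A single barcode held 16 of their 18 Pmel UMIs, and a single barcode 29 of their 51 Optc UMIs. Slc45a2 and Gpr143 had 0 UMIs there in library 1, and 20.7 and 4.87 CPM in library 2, where Gpr143 rests on 4 UMIs. Pmel and Slc24a5 (51.0 CPM) of library 1 lay within the range of the classes without pigment.

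The order of the classes was alike for most of the genes. Melanocytes had the highest mean of all 10 genes over the libraries, and for Mitf alone they overlapped the class next in order, Pax6-Pcp4 (250.5 and 149 CPM). Pax6-Pcp4 came second and RPE next for Tyr, Tyrp1, Dct, Mlana, Slc45a2, Oca2 and Mitf, with overlapping values only for Oca2. RPE came second for Slc24a5 and Gpr143, whereas for Pmel it came last by its mean. Its Pmel values (12.8 and 56.4 CPM) overlapped those of endothelium (58.6 and 44.5 CPM), the class before it. Among the classes without pigment, mural cells were highest for every gene except Mitf. Mitf was higher in macrophages (28.1 and 41.2 CPM) than in mural cells (16.3 and 13.5 CPM), fibroblasts (4.66 and 9.16 CPM) and endothelium (1.35 and 2.94 CPM), and the libraries of neighbouring classes did not overlap. Macrophages are a cell type in which Mitf is known to act.

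At equal depth the pigment genes were detected together in melanocytes but sparsely in RPE. Each barcode was thinned to 2000 UMIs, which left out 8 and 12 barcodes of the melanocyte rule only and 8 and 39 of the RPE class. Dct was left out of the count, since the melanocyte rule required it. Of the other 9 genes, a median of 6 and 7 had a UMI in barcodes of the melanocyte rule only, 1 and 1 in barcodes of both rules, 1 and 1 in RPE and 0 in each class without pigment. At least 5 of the 9 were detected in 90.2% and 92.4% of the barcodes of the melanocyte rule only, against 1.56% in RPE of library 2. In RPE of library 1 it was 0 of 148 barcodes, which allows a share of up to 2.03%. In fibroblasts the share was 0.327% and 0.475%.

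Dct was the pigment gene most often seen in RPE barcodes, with a UMI in 83.8% (exact 95% binomial interval 76.8% to 89.3%) and 84.4% (81.1% to 87.2%) at that depth. Its share was 5.18% and 9.85% in fibroblasts, taken here as the background. The source of the UMIs in fibroblasts was not tested, and the intervals cover counting error only. Median depths before thinning were 14950 and 13358 UMIs in RPE and 7866 and 8460 in fibroblasts. Slc24a5 had a UMI in 35.8% and 45.3% of RPE barcodes, against 3.40% and 2.49% of fibroblasts. Pmel had a UMI in 4.73% (1.92% to 9.50%) and 10.1% (7.74% to 12.8%) of RPE barcodes, against 3.57% and 5.98% of fibroblasts and 98.8% and 98.2% of barcodes of the melanocyte rule only. Without thinning, 19.9% and 34.0% of RPE barcodes had a Pmel UMI, and 98.7% and 96.4% a Dct UMI.

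**Figure D4:**
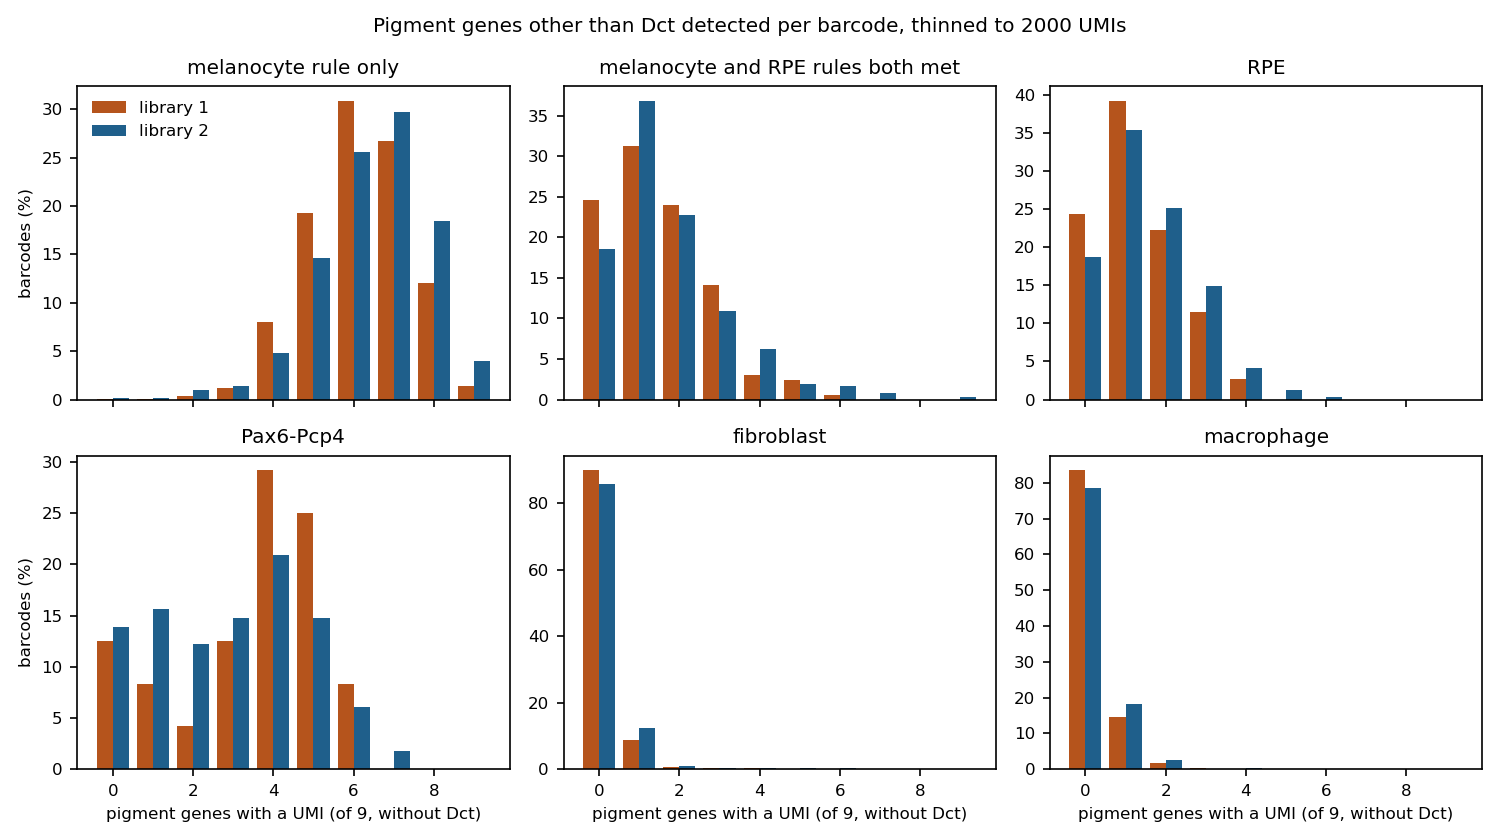
Number of the 9 pigment genes other than Dct with at least 1 UMI per barcode (horizontal axis) and share of barcodes (%, vertical axis, scaled per panel), thinned to 2000 UMIs, for library 1 in brown and library 2 in blue. Barcodes of the melanocyte rule only peak at 6 genes in library 1 and 7 in library 2, barcodes of both rules and RPE at 1, and fibroblasts and macrophages at 0.

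Between melanocytes split by marker genes, the pigment genes differed by less than 2-fold, but the split was coarse. Barcodes of the melanocyte rule only were split by whether Prb1 and Gjb2 or Syt4, Scrg1 and Nrcam had more UMIs, which gave 82 and 58 barcodes of the Prb1-Gjb2 kind and 933 and 1521 of the Syt4-Scrg1-Nrcam kind. The split used genes of the same cells, so the values are a description. Oca2 was 533 and 649 CPM in the Prb1-Gjb2 kind, against 363 and 440 CPM in the other, and Pmel was 15929 and 13016 CPM, against 12237 and 10613 CPM. Mitf was 132 and 319 CPM, against 160 and 398 CPM. By this split no gene of the list differed by 2-fold in either library. The kinds were barely resolved, since 956 and 1435 barcodes had UMIs of both gene groups or of neither, and only 2 and 3 had Prb1 or Gjb2 without the other group.

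Other melanosome genes were divided between the classes. Of 34 genes for melanosome assembly and transport, 11 were higher in melanocytes than in RPE and 2 were lower, which is 32.4% and 5.88% of the list, against 10.4% and 10.6% of all genes tested. The median log2 difference was 0.32, against -0.07 over all genes. Without the barcodes of both rules 13 were higher and 4 lower, or 38.2% and 11.8%, against 16.7% and 19.4% of all genes (median 0.61, against 0.04). The 3 largest rises were those of Mlph, Mreg and Myo5a. Mlph, the melanophilin linker, had 477 and 592 CPM in melanocytes, against 2.13 and 4.13 CPM in RPE (log2 7.06 ± 0.27). Mreg, melanoregulin, had 25.2 and 36.3 CPM, against 0.305 and 0.375 CPM in RPE (6.20 ± 0.40), where it rests on 5 UMIs. Myo5a, the myosin that melanophilin joins to melanosomes, had 520.1 and 698 CPM, against 20.1 and 30.3 CPM in RPE (4.33 ± 0.21).

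Myrip and Bloc1s3 were the genes of that list called lower in melanocytes. Myrip, which joins Rab27a to myosin 7a on melanosomes of the RPE, had 44.5 and 44.3 CPM in melanocytes, against 80.2 and 82.0 CPM in RPE. Its log2 difference was -1.18 ± 0.20, and -3.08 ± 0.28 without the barcodes of both rules, where melanocytes had 14.3 and 9.65 CPM. Bloc1s3, a subunit of the BLOC-1 sorting complex, had 7.30 and 6.41 CPM in melanocytes, against 12.8 and 10.1 CPM in RPE (-1.05 ± 0.21). On raw UMI totals no gene of the list was called lower. The edgeR adjusted p of the 5 genes called was at most 1.29e-03.

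Of 16 regulators and receptors of pigment cells, 8 were higher in melanocytes and 1 was lower (6.25%), against shares of 10.4% and 10.6% of all genes tested. The median log2 difference was 1.51, against -0.07 over all genes, or 0.93 with Tfec, which had no UMI in RPE, at the bound that 3 counts set. Without the barcodes of both rules 10 were higher and 1 lower, or 62.5% and 6.25%, against 16.7% and 19.4%. Pax3, Ednrb and Tfap2a rose most. Ednrb, the endothelin receptor of neural crest cells, had 1696 and 1739 CPM in melanocytes, against 1.83 and 8.63 CPM in RPE (8.01 ± 0.69). Pax3 rested on 1 UMI in RPE, and its ratio over both libraries was 594 with an exact 95% counting interval of 107 to 23476. For Tfap2a, on 3 UMIs in RPE, the ratio was 247 (84.4 to 1198). Otx2, a homeobox factor that works with MITF in the RPE, was the gene that fell, with 91.4 and 129 CPM in melanocytes, against 183 and 276 CPM in RPE (-1.36 ± 0.20). Without the barcodes of both rules melanocytes held 0.222 and 0.469 CPM of Otx2 and the difference was -9.06 ± 0.33. The edgeR adjusted p of these 4 genes was at most 1.76e-04.

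**Figure D5:**
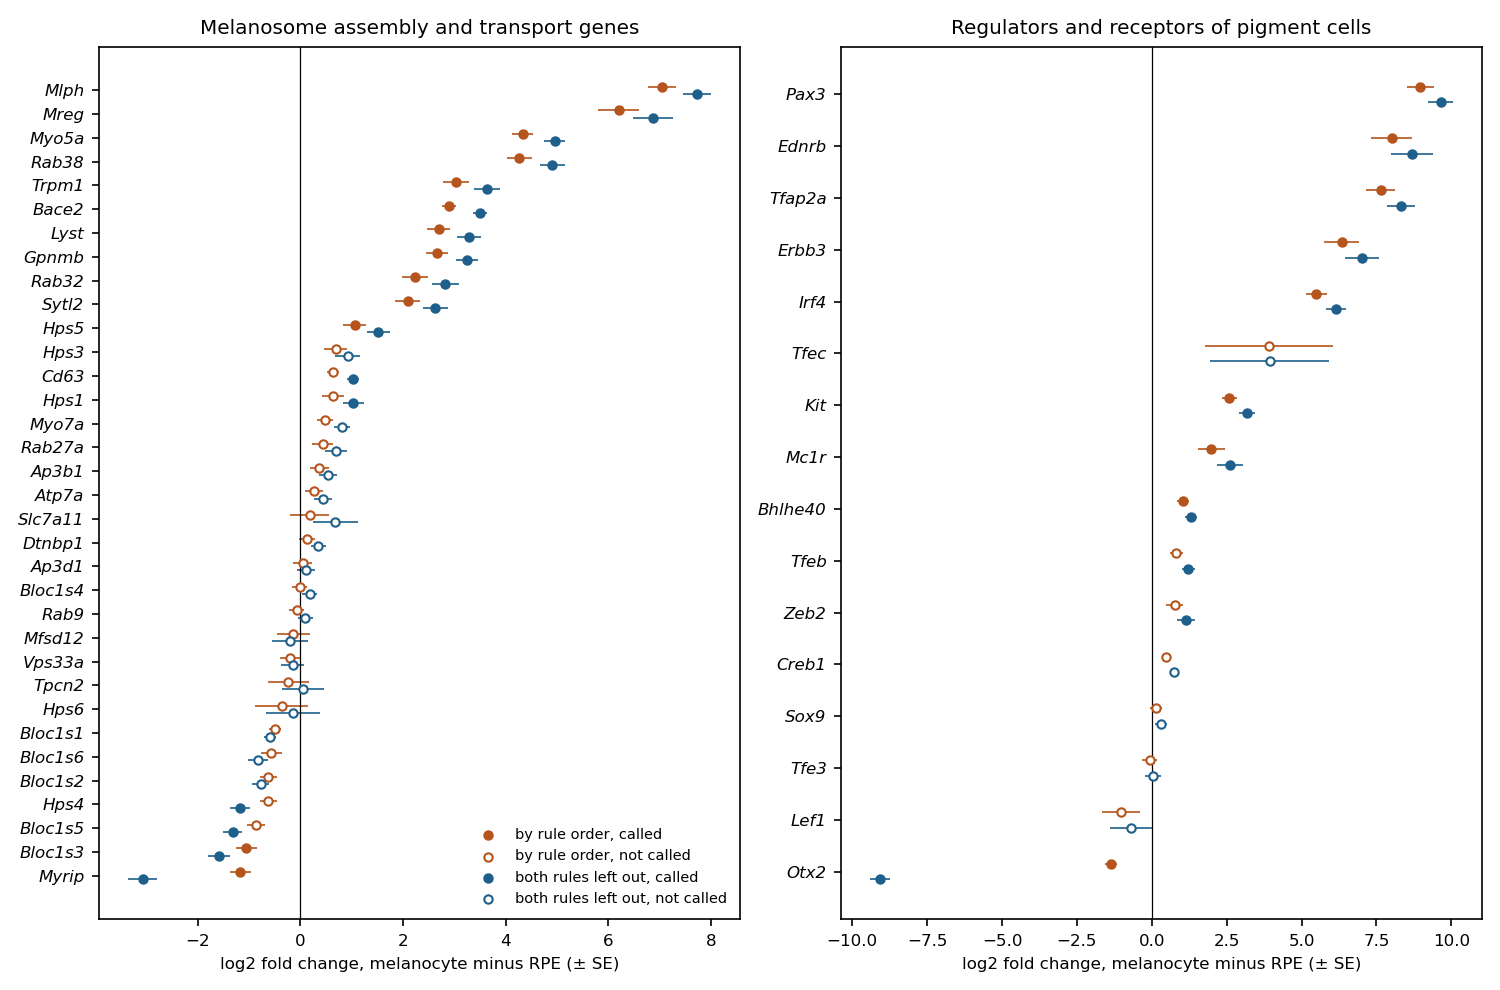
Log2 fold change, melanocyte minus RPE, of 34 melanosome genes (left) and 16 regulators and receptors (right), with standard errors. Filled points were called and open points were not, with the melanocyte class by rule order in brown and without the barcodes of both rules in blue. The largest shifts between the colours are those of Otx2 (-1.36 and -9.06) and Myrip (-1.18 and -3.08).

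The profile over the 14 class-by-library sums showed which genes ran most alike. Over log2 CPM with 1 CPM added, and leaving out the genes that define the classes, the nearest gene was Syngr1 for Tyr (Pearson r 0.987) and Dct (0.987), Cab39l for Tyrp1 (0.978), Pianp for Pmel (0.982), Gm49492 for Mlana (0.969) and Rab38 for Slc45a2 (0.960). For Oca2 (0.986) and Slc24a5 (0.976) it was N6amt1, for Gpr143 S100a1 (0.988) and for Mitf Vegfb (0.962). Within the list, Tyr and Dct ran closest (0.994), and Pmel and Gpr143 least alike (0.596). The sums share their libraries and depths, so these values describe likeness and were not tested.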

How the data were processed

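Single cells of choroid with RPE from 2 pools of wild-type mice were sequenced as 3' droplet libraries (Chromium 3' v3.1, 10000 cells loaded per library). The deposited matrices give unnormalized UMI counts and list every barcode with a UMI, so no cells had been selected. They were made with Cell Ranger, version 4 per the file headers and version 2.1.1 per the submitters' processing notes, on mm10. The sources used here do not name the gene annotation or strand setting.

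From these counts, barcodes were filtered and classed by the rules in the results, UMIs were summed per class and library, and 14 sums were fitted with edgeR 4.0.16 in R 4.3.3 (TMM, filterByExpr, robust quasi-likelihood test, 6 residual degrees of freedom), with Benjamini-Hochberg adjustment over 15010 genes. A gene was called at an adjusted p below 0.05 and at least 2-fold. The library was a block, because all classes of a library come from the same mice. Nothing in the labels says how far the pools differ beyond being separate samples of mice, and n is 2. The script was tested on simulated counts. All 10 genes of the list are named. From the other lists the 3 genes with the largest change in each direction among those called are named. For each pigment gene, the gene with the highest correlation outside the pigment and class genes is named. The members, lists and class rules were chosen with earlier results of these data known. Doublets were kept, with removal by Scrublet (scanpy 1.11.5) as an alternative. Other alternatives were raw totals, DESeq2 1.42.0, no filter on low counts, no block, other class rules, and subtraction of free RNA. Gene positions are from GENCODE M21 (GRCm38), where 99.6% of the 32285 gene IDs were found. Intervals cover counting error only.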

Additional observations from a re-analysis of the deposited data

How the results depend on the processing

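Alternative values of single pigment genes were set against the main ones for direction and side of the threshold. For melanocytes against RPE, 142 of 160 kept both, and for RPE against cells without pigment 143 of 150. Against those cells, 150 of 150 kept both for melanocytes and 140 of 140 for Pax6-Pcp4. For Pax6-Pcp4 against RPE it was 131 of 140. Dct, set in part by the rules, is counted in all of these. It is also counted below for RPE against cells without pigment and for Pax6-Pcp4. Pmel reversed to 1.19 between RPE and cells without pigment when the RPE rule came first, and Oca2 to 0.061 between Pax6-Pcp4 and RPE on raw UMI totals. Subtracting free RNA by rod genes left 1 pigment gene called between melanocytes and RPE (adjusted p of the 7 lost genes 0.0632 to 0.497, with log2 differences of 1.14 to 4.39 apart from Pmel) and 0 between Pax6-Pcp4 and RPE, where DESeq2 on unsubtracted counts called 6, and the cause was not tested. Subtraction by fibroblast genes called 9 and 6. Mitf lay between 0.95 and 1.55 for melanocytes against RPE over the fitted alternatives and was called in 9 of them. Over all genes, 3151 calls became 6086 without barcodes of several rules, 5424 without barcodes of both the melanocyte and RPE rules and 5834 with the RPE rule first, alternatives of which the last 2 were chosen after seeing the data. With no replicate block, 8 pigment genes were called for melanocytes against RPE and 9 for melanocytes against cells without pigment, as with the block. For RPE against those cells it was 10 with and without the block, with Dct counted and Pmel lower. Over all genes, melanocytes against RPE gave 2553 calls without the block and 3151 with it. The median share of RPE barcodes with a UMI of a pigment gene, 12.7% at 2000 UMIs, was 27.4% at 4000 UMIs and 56.4% without thinning, so depth sets these shares. With 1 library left out, 8 to 9 pigment genes were past 2-fold between melanocytes and RPE, 9 to 10 between RPE and cells without pigment, 9 and 10 for melanocytes and Pax6-Pcp4 against those cells, and 6 between Pax6-Pcp4 and RPE. The melanosome list gave 12 and the regulators 9 to 12, and these values have no test. Too few Pax6-Pcp4 barcodes (8 in library 1) were left for a value without barcodes of several rules.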

Other observations

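Barcodes that carried Dct but no Sox10 UMI and met no class rule had pigment gene levels near those of barcodes of the melanocyte rule only. There were 314 and 482 unassigned barcodes with at least 5 Dct UMIs. Tyr was 579 and 563 CPM in them, against 594 and 637 CPM in barcodes of the melanocyte rule only. Pmel was 11905 and 9975 CPM, against 12518 and 10679 CPM, and Mitf 184 and 333 CPM, against 157 and 395 CPM.

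Sox10, a neural crest factor, had a UMI in 166 and 367 barcodes that met the RPE rule, which is 52.0% and 37.7% of them. The level over all RPE-rule barcodes was 34.6 and 28.8 CPM. Melanocyte RNA scaled to supply all of their Pmel would give 12.4% and 18.8% of that Sox10. The barcodes of both rules held 12 of 163 and 33 of 358 with at least 10 Pmel UMIs, and these carried 94.3% and 94.2% of the Pmel UMIs of that group.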
